A study of Mus musculus with 4 samples.

Results

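The 9 genes described here, S100a3, S100a4, S100a6, S100a8, S100a9, S100a10, S100a11, S100a14 and S100a16, encode S100 calcium-binding proteins. They were taken by symbol, as a list, from the 24453 genes of the deposited files, and all 9 were found. RNA was measured in epithelial cells of the embryonic mouse tongue without its posterior circumvallate papilla, sorted on the surface protein EpCAM on embryonic day 16, in 2 control libraries and 2 libraries labelled Ring1a/b 2KO. The second genotype is given as Ring1a-/- Ring1bfl/fl K14-Cre+: Ring1a is missing throughout the animal, and Ring1b is removed by a Cre recombinase driven by the keratin 14 promoter, which is active in the basal layer of stratified epithelium. The control genotype is given as control alone, with no alleles named. Ring1a and Ring1b (genes Ring1 and Rnf2) are the catalytic subunits of Polycomb repressive complex 1, which keeps developmental genes silent.

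S100 proteins are small proteins with a pair of EF-hand loops, which bind calcium. They mostly act as dimers that dock on other proteins when calcium rises, and some are released from cells as danger signals. In stratified epithelium many of them mark particular layers or states: S100a8 and S100a9 pair as calprotectin in neutrophils and in wounded or inflamed epithelium, S100a10 and S100a11 partner annexins at membranes, and S100a14 and S100a16 are enriched in epithelia. All 9 genes lie on chromosome 3 in the epidermal differentiation region, which also holds the loricrin, involucrin, small proline-rich, late cornified envelope and filaggrin genes of the epithelial barrier.

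The libraries held 16256569 to 20624055 counts, of which the ribosomal RNA precursor gene Rn45s took 15.3% to 16.7% in control and 20.2% to 22.9% in the 2KO-labelled libraries. The targeted genes were not lower in the libraries labelled 2KO. Ring1 was at 9.02 and 8.57 CPM (counts scaled to a common library size) in the control pair, against 16.8 and 15.0 CPM in the 2KO-labelled libraries, and Rnf2 was at 34.0 and 51.3 CPM and at 62.9 and 62.4 CPM. A count over the whole gene does not check the loss of part of it, so the genotype rests on the labels and every direction below is that of the libraries labelled 2KO. Of 15336 genes that passed a filter on low counts, edgeR's quasi-likelihood test (adjusted p under 0.05) called 1073 higher, which is 7% of those tested, and 754 lower, which is 4.92%. With an offset for GC content and transcript length, 42.3% of the called genes were higher, against 58.7% without it. Whether replicates are separate embryos is not stated, and the p-values thus describe only how far these libraries differ, a spread that may be technical.

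S100a11 dominated the family in every library. Levels of different genes were compared as FPKM, the authors' read density scaled for transcript length and depth. S100a11 stood at 1467 and 1764 FPKM in the control libraries and at 2173 and 2220 FPKM in the 2KO-labelled libraries. That placed it 11th of all 24453 genes by mean FPKM in control and 8th in the 2KO-labelled libraries. The 4 genes behind it in control were S100a14 at 242 ± 22.8 FPKM, S100a10 at 221 ± 85.6, S100a16 at 131 ± 16.3 and S100a6 at 91.6 ± 19.6 FPKM (SD, n = 2 libraries, here and below). S100a14 and S100a10 overlapped in control, whereas S100a10 and S100a16, and S100a16 and S100a6, did not overlap. S100a4 was an order lower, at 10.9 ± 4.42 FPKM. S100a9 and S100a3 overlapped below that, at 0.904 ± 0.582 and 0.607 ± 0.0646 FPKM, and S100a8 was listed at 0 in one control library and at 0.258 FPKM in the other.

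**Figure D1:**
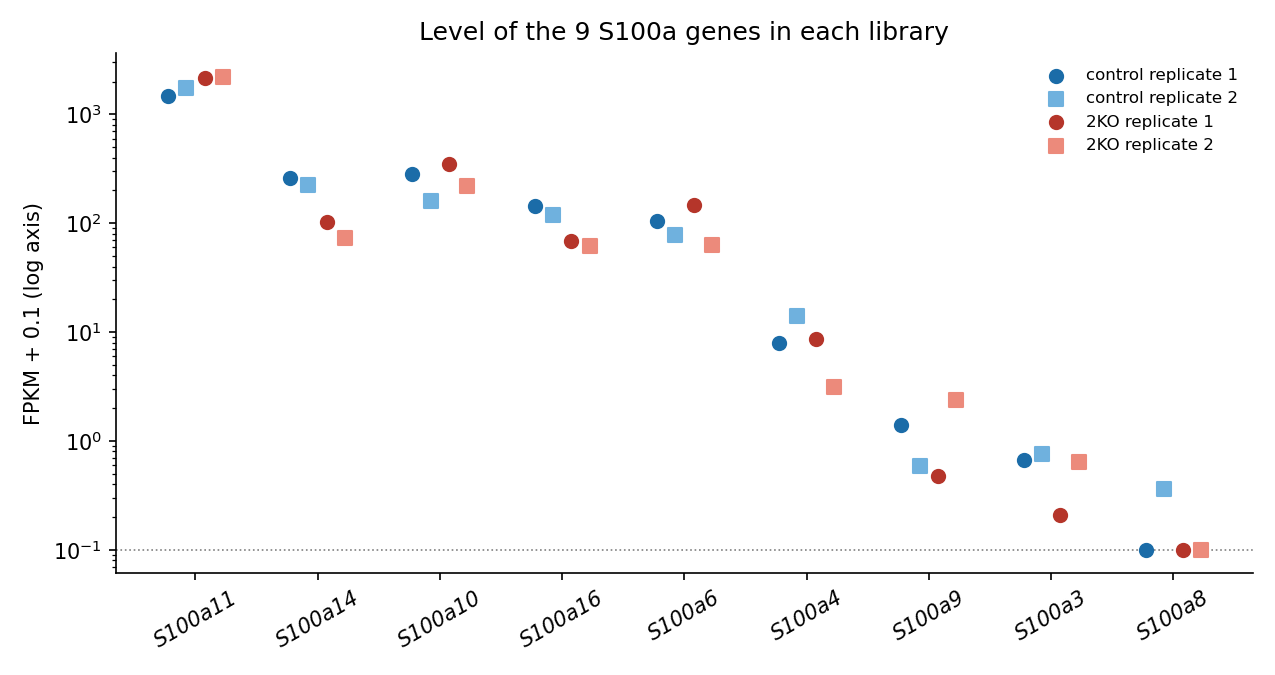
Level of the 9 S100a genes, ordered by control mean. Each point is 1 library (blue control, red 2KO-labelled; circles replicate 1, squares replicate 2), the vertical log axis is FPKM + 0.1, and the dotted line marks a listed value of 0. S100a11 lies at or above 1467 FPKM in every library, the 2KO-labelled libraries lie below control for S100a14 and S100a16, and S100a8 is listed at 0 in 3 of 4 libraries.

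In the 2KO-labelled libraries the order changed behind S100a11. S100a10 came next at 283 ± 91.9 FPKM, then S100a6 at 105 ± 59.4, S100a14 at 87.7 ± 19.8 and S100a16 at 64.8 ± 5.33 FPKM. S100a10 did not overlap S100a6. The range of S100a6, 63.3 to 147 FPKM, took in both libraries of S100a14 and overlapped those of S100a16, so S100a6 could not be ordered against them beyond its spread. S100a14 and S100a16 did not overlap. S100a4 followed at 5.75 ± 3.81 FPKM, S100a9 at 1.34 ± 1.36 and S100a3 at 0.325 ± 0.305 FPKM, and S100a8 was listed at 0 in both libraries. Among all genes S100a14 went from rank 154 to rank 531, and S100a16 from rank 341 to rank 781.

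Promoter sequences are shown for a gene at each kind of level: the most abundant member, a member that fell (with both of its annotated starts) and a member with almost no reads. Of the 9 members 7 had a window in RefSeq on build GRCm38.p6, with 11 windows in all. Each sequence below is the 250 bases before an annotated start, 5′ to 3′, with matches to 4 motifs in capitals: TATAAA (the TATA box core), TGANTCA (the AP-1 core, here with any base at its centre), AACCNGTT (the Grainyhead-like core) and GGGCGG (the GC box), searched on both strands, with overlaps allowed.
S100a11, chr3:93520246-93520495, plus strand: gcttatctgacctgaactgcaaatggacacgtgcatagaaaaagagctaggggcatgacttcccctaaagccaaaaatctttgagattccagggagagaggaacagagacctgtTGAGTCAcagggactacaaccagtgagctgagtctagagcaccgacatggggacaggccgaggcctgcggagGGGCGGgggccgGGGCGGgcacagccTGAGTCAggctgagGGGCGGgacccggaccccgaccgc
S100a16, upstream start, chr3:90537004-90537253, plus strand: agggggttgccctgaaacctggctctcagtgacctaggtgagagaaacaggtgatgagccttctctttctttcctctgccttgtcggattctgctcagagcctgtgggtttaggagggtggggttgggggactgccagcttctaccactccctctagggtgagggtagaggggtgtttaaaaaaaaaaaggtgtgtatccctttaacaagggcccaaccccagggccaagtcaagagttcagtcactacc
S100a16, downstream start, chr3:90540896-90541145, plus strand: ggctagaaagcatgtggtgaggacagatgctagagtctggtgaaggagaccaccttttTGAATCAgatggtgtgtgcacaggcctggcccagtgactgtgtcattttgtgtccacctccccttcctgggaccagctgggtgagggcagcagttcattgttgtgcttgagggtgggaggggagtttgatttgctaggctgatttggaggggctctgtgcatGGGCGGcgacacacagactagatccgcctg
S100a8, chr3:90668821-90669070, plus strand: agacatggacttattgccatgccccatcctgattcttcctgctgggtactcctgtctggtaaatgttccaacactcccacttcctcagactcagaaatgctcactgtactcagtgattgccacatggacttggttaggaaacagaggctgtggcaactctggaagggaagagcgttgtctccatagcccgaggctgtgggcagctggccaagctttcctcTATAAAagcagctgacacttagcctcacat
The S100a11 window held 11 CG dinucleotides, against a median of 6 over 32851 windows of that length, and 66.5% of windows held as many or fewer. It had 3 GC boxes, at 64, 52 and 24 bases before the start, and 2 AP-1 cores, at 136 and 38 bases. The upstream S100a16 window held 1 CG and none of the 4 motifs, and the downstream one held 3 CG, 1 AP-1 core and 1 GC box. The S100a8 window held 2 CG and a TATA box core 30 bases before the start, and the S100a4 window had one at 31 bases. TATAAA was present in 12.4% of all windows, TGANTCA in 6.75%, AACCNGTT in 1.79% and GGGCGG in 32.7%. Among the 7 members, 3 had a window with TATAAA, 2 with TGANTCA, 2 with AACCNGTT and 4 with GGGCGG. A member was counted if any of its windows matched, and some had several of the 11 windows. These counts thus cannot be set against the shares of single windows. These matches describe the letters only.

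S100a14 and S100a16 fell in the 2KO-labelled libraries, the only members that did by edgeR's test. Of the 9 members 6 passed the filter on low counts, and 2 of these 6 were lower and 0 higher, beside 4.92% of all tested genes lower, 7% higher and 11.9% called in either direction. In 3 of the 6 (S100a11, S100a14 and S100a16) the CPM of the groups did not overlap, as in 57.7% of all tested genes. At an unadjusted p under 0.05 the same test had 2 lower and 1 higher, beside 2023 lower and 2218 higher of all 15336 tested genes. DESeq2 and limma-voom each called 2 lower and 1 higher. Over all genes DESeq2 called 1006 lower and 1411 higher of 19211, and limma-voom called 856 lower and 1112 higher of 15336. Of the 6 tested members 3 had a positive log2 fold change. The median of the 6 was -0.38, in the gap between S100a4 (-0.90) and S100a6 (0.14), beside 0.0065 over all tested genes.

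S100a14 encodes an S100 protein of epithelia that lacks some of the usual calcium-binding residues. It lies at positions 90526856 to 90528837 of chromosome 3 (mm10, plus strand), and no exon of another annotated gene overlaps it. It was at 245 and 222 CPM in the control pair, against 90.7 and 74.8 CPM in the 2KO-labelled pair. Both 2KO-labelled libraries lay far below both controls, with no overlap. The log2 fold change was -1.497 (standard error 0.167, adjusted p = 0.000387 by edgeR's quasi-likelihood test), or 2.82-fold lower. The fall held in 15 of 16 alternative settings, over log2 fold changes of -1.65 to -1.37, and was not called on unfiltered FPKM values (adjusted p = 0.0929), a setting under which no gene was called (3764 of 18210 at an unadjusted p under 0.05).

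S100a16 starts 8.42 kb after the end of S100a14 (90537254 to 90543151, plus strand) and encodes the other of the S100 proteins enriched in epithelia. It was at 128 and 105 CPM in the control pair, against 59.8 and 55.3 CPM in the 2KO-labelled pair, again with no overlap. The log2 fold change was -1.02 (standard error 0.177, adjusted p = 0.00468 by edgeR). It too was called lower in 15 of 16 alternative settings and missed on unfiltered FPKM values (adjusted p = 0.0938). Within a library the FPKM of S100a14 was 1.81 and 1.89 times that of S100a16 in control and 1.48 and 1.21 times in the 2KO-labelled libraries. The counts cannot say which of the S100a16 starts shown above was used.

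The sorted cells form a bulk sample, in which fewer cells of a type and less RNA per cell cannot be told apart. The sorting protocol calls the cells basal, but suprabasal keratins were abundant in control. Markers of the suprabasal layers fell with S100a14 and S100a16: 8 of 11 tested were called lower and 0 higher, beside 4.92% and 7% of all tested genes. Their summed level was 3780 and 2770 CPM in control and 1360 and 724 CPM in the 2KO-labelled libraries. Krt13, the main suprabasal keratin of oral epithelium, had a log2 fold change of -2.75 (adjusted p = 0.000491). Of 9 basal markers 2 were lower and 0 higher, beside the same shares of all tested genes. Their summed levels were 16500 and 13500 CPM in control and 11600 and 12500 CPM in the 2KO-labelled libraries. The 2 called were Krt14 and Krt5, and Krt5 was not called in 5 of 16 alternatives. Muscle markers summed to 323 CPM in control replicate 2 and to 44.9 to 55.8 CPM in the other 3 libraries. With that library left out, the log2 fold changes of S100a14 and S100a16 were -1.56 and -1.14, both still called. Of 7 endothelial markers 6 had a positive log2 fold change (median 1.21) and 0 were called by edgeR. At an unadjusted p under 0.05 the same test had 2 of the 7, beside 4241 of all 15336 tested genes. The 7 markers summed to 28 and 22.2 CPM in control and to 34.9 and 57.1 CPM in the 2KO-labelled libraries. The part of these shifts in the fall of S100a14 and S100a16 was not tested.

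The genes whose pattern was most like that of S100a14 over the 4 libraries were Krt6a, Scnn1a and Fgfbp1. Likeness was the root mean square difference in log2(CPM + 1), each gene taken relative to its control mean, among 11026 genes with at least 5 CPM. That difference was 0.074 for Krt6a, a keratin of oral and stressed epithelium, 0.091 for Scnn1a, a subunit of the epithelial sodium channel, and 0.10 for Fgfbp1, a secreted carrier of fibroblast growth factors. Their log2 fold changes were -1.52, -1.65 and -1.42, all called lower. They were picked for this likeness, so their direction is a description. Krt6a has close paralogs with which its reads can be confused.

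S100a11 was higher in both 2KO-labelled libraries than in both controls but missed the threshold. This gene (93520488 to 93526287, plus strand) encodes a partner of annexin A1 that is also built into the cornified envelope. It was at 530 and 609 CPM in the control pair, against 742 and 770 CPM in the 2KO-labelled pair, a log2 fold change of 0.41 (standard error 0.138, adjusted p = 0.0806 by edgeR). With 10379 to 15565 counts a library, the counting error was 0.802% to 0.982% of the level, smaller than the distance between control replicates. The call turned to higher with DESeq2 (adjusted p = 0.0379), with limma-voom (0.0393), in the absence of control replicate 2 (0.52, adjusted p = 0.0275) and with the GC content and length offset (0.67, adjusted p = 0.0120). Over all alternatives the adjusted p ran from 0.0120 to 0.574 and the log2 fold change stayed between 0.335 and 0.666.

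S100a10, the annexin A2 partner that holds its active shape without calcium, begins 28.8 kb past the end of S100a11 (93555080 to 93564643, plus strand). It was at 129 and 75.1 CPM in the control pair, against 145 and 93.6 CPM in the 2KO-labelled pair. The groups overlapped, and the replicates of each group differed by more than the group means did. The log2 fold change was 0.23 (standard error 0.264, adjusted p = 0.627 by edgeR). Single libraries decided it: without control replicate 1 it was called higher (0.70, adjusted p = 0.0248), and it was -0.10 without control replicate 2 and -0.13 without 2KO-labelled replicate 1.

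S100a6, or calcyclin, a calcium sensor raised in many proliferating cells (90612882 to 90624181, plus strand), differed more between the 2KO-labelled replicates than between the controls. It was at 47.6 and 34.4 CPM in the control pair, against 62.3 and 28.4 CPM in the 2KO-labelled pair. The 2KO-labelled libraries enclosed both controls. The log2 fold change was 0.14 (standard error 0.322, adjusted p = 0.822), and it turned to -0.062 without control replicate 2 and to -0.53 without 2KO-labelled replicate 1.

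**Figure D2:**
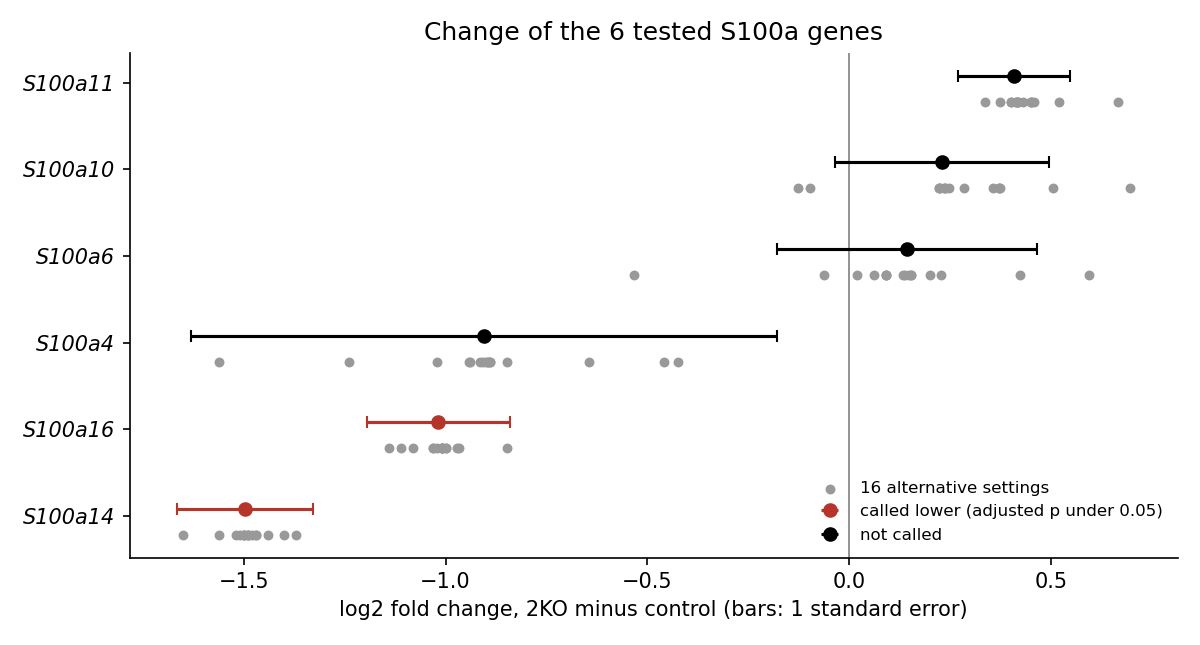
Change of the 6 S100a genes that passed the low-count filter. Large points are log2 fold changes of 2KO-labelled against control with bars of 1 standard error (red called lower, black not called), and small grey points are the same change under 16 alternative settings. S100a14 and S100a16 lie at or below -0.849 throughout, S100a11 lies above 0 throughout, and the grey points of S100a10 and S100a6 fall on both sides of 0.

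Read density summed over the 9 members was 2265 and 2364 FPKM in control and 2848 and 2642 FPKM in the 2KO-labelled libraries, while its makeup differed. In CPM, with no scaling for length, the sum was 1082 and 1051 in control and 1103 and 1024 in the 2KO-labelled libraries, which enclosed control. S100a11 made up 64.8% and 74.6% of the summed FPKM in control and 76.3% and 84.0% in the 2KO-labelled libraries. S100a14 made up 11.4% and 9.56% in control and 3.57% and 2.79% in the 2KO-labelled libraries, and S100a16 made up 6.29% and 5.05% and then 2.41% and 2.31%. The ratio of S100a11 to S100a14 within a library, which no scaling between libraries can alter, was 5.68 and 7.80 in control and 21.4 and 30.1 in the 2KO-labelled libraries. By contrast the ratio of S100a11 to S100a10 was 5.21 and 11 in control and 6.25 and 10.2 in the 2KO-labelled libraries, which overlap.

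**Figure D3:**
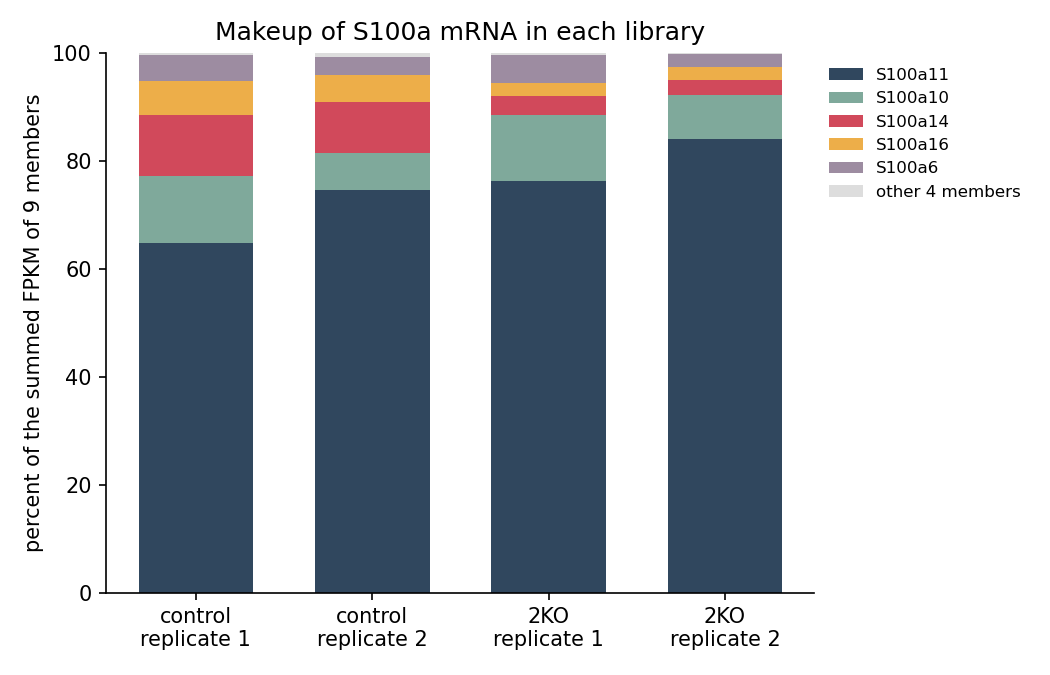
Makeup of S100a mRNA. Each bar is 1 library and its segments are percent of the summed FPKM of the 9 members. The S100a14 segment goes from 11.4% and 9.56% in the control libraries to 3.57% and 2.79% in the 2KO-labelled ones, and S100a11 makes up 64.8% to 84.0%.

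S100a4, a gene of fibroblasts, leukocytes and motile cells (90603771 to 90606045, plus strand), was low and uneven. It had 56 and 83 counts in control and 49 and 26 in the 2KO-labelled libraries, or 2.75 and 4.87 CPM against 2.78 and 1.29 CPM. The groups overlapped, and the log2 fold change of -0.90 had a standard error of 0.725 (adjusted p = 0.465), so a difference was not detectable at this depth and spread. Exons of a predicted gene, Gm42674, overlap those of S100a4 and S100a3, and exons of a further gene, Gm23464, overlap those of S100a3. The counts of S100a4 and S100a3 are uncertain to that extent. Fibroblast markers summed to 274 and 344 CPM in the control pair, against 373 and 332 CPM in the 2KO-labelled pair, with 0 of 9 called by edgeR. At an unadjusted p under 0.05 the same test had 3 of these 9 markers, beside 4241 of all 15336 tested genes. Of the 3, Col3a1 was lower, and Pdgfrb and Twist1 were higher. The part of fibroblasts in the S100a4 level was not tested.

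S100a8 and S100a9, the calprotectin pair, were close to absent. S100a8 (90668978 to 90670035, plus strand) had 1 count over all 4 libraries, in control replicate 2. A count of 0 allows up to 3 counts, or 0.147 to 0.176 CPM by library, so no fold can be given. S100a9 (90692632 to 90695721, minus strand) had 9 and 3 counts in control and 4 and 14 in the 2KO-labelled libraries, and the groups overlapped. Neutrophil markers were as low: none of 10 passed the filter, Ly6g, Camp and Csf3r had no counts in any library, and the list summed to 0.247 to 2.27 CPM. Leukocyte and macrophage markers summed to 28.0 and 31.0 CPM in the control pair, against 59.5 and 55.0 CPM in the 2KO-labelled pair. Of 9 tested 1 was called higher, beside 7% of all tested genes. It was Cd68, a lysosomal protein (log2 fold change 1.37, adjusted p = 0.0123 by edgeR). Without Cd68 the other 12 markers summed to 6.72 and 19.1 CPM in control and to 12.4 and 15.9 CPM in the 2KO-labelled libraries, which overlap. The largest change among those of them tested was that of Lyz2, which was not called (log2 fold change -3.98, adjusted p = 0.108).

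S100a3, known from the hair cuticle (90560578 to 90602702, plus strand), had 6 and 6 counts in control and 3 and 7 in the 2KO-labelled libraries, and did not pass the filter. Its deposited values did not move together: FPKM per CPM was 1.91 and 1.85 in control but 0.643 and 1.56 in the 2KO-labelled libraries, whereas for S100a11 it stayed between 2.77 and 2.93. S100a3, S100a8 and S100a9 together held 53 counts over all 4 libraries. With no low-count filter edgeR called none of them (adjusted p = 0.950, 0.767 and 0.896), and DESeq2 gave them no adjusted p (unadjusted p = 0.884, 0.756 and 0.767).

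The S100 genes outside this set were low throughout. Of 8 others listed, 3 were tested, and 0 were called by edgeR, beside 11.9% of all tested genes. At an unadjusted p under 0.05 the same test had 0 of the 3, beside 4241 of all 15336 tested genes. S100a13 was at 3.14 and 5.11 CPM in the control pair, against 3.29 and 4.3 CPM in the 2KO-labelled pair, and S100a1 at 1.37 and 1.06 CPM, then 1.76 and 0.940 CPM. Both lie just before S100a14 on the chromosome, and their changes were smaller than their errors (log2 fold changes -0.12 and 0.15, standard errors 0.588 and 0.944). S100b, a gene of Schwann cells and melanocytes, had 46 and 5 counts in control and 5 and 22 in the 2KO-labelled libraries. S100a7a, the mouse psoriasin gene, had 8 and 5 counts in control and 1 and 0 in the 2KO-labelled libraries, a control to 2KO ratio of 13.1 (95% counting interval 1.97 to 558). It did not pass the filter, and the interval covers counting error only. S100a5 had 1 count in all, S100g had 4 and S100z had 0, S100a7l2 (listed as 9130204L05Rik) had 0, and S100a2, added after the values were seen, had 6 counts in one library and none in the other 3.

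Genes whose proteins bind S100 proteins, or receive them outside the cell, mostly did not pass the test, like most tested genes. Of 18 tested, 2 rose, 1 fell and 15 were not called. Of all tested genes 7% were called higher, 4.92% lower and 11.9% in either direction. The median log2 fold change was -0.22 beside 0.0065 for all tested genes. Anxa1 and Anxa2, singled out after their values were seen as the annexins bound by S100a11 and S100a10, were at 422 ± 58.5 and 417 ± 52.8 CPM in the control pair, against 338 ± 109 and 396 ± 60.9 CPM in the 2KO-labelled pair. Neither was called (adjusted p = 0.350 and 0.811), and Anxa2 turned sign on FPKM values. Anxa1 was called lower when 2KO-labelled replicate 1 was left out (-0.695 on the log2 scale, adjusted p = 0.0262) and was at -0.033 when replicate 2 was. Anxa5, an annexin that binds exposed phosphatidylserine, fell to 124 ± 18.4 from 230 ± 67.2 CPM in control (-0.89 on the log2 scale, adjusted p = 0.0196). Anxa11 rose from 6.93 ± 2.26 to 17.5 ± 1.01 CPM (1.33, adjusted p = 0.0315), and Plaur, the urokinase receptor, rose from 17.1 ± 8.67 to 41.2 ± 10.6 CPM (1.26, adjusted p = 0.0350). Anxa11 lost its call without either 2KO-labelled library (adjusted p = 0.102 and 0.0616) and Plaur without 2KO-labelled replicate 1 (0.0741). On filtered FPKM values Anxa5 (0.0915) and Plaur (0.0687) were not called. Ahnak and Alcam, which had the most reads of the list by CPM with no scaling for length, had log2 fold changes of -0.44 and -0.29 and were not called. Ahnak was called lower in 3 of 16 alternatives: with no low-count filter (adjusted p = 0.00923), with control replicate 2 left out (0.000141) and with the GC content and length offset (0.0210).

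The list of other EF-hand calcium sensors held a larger change than any tested S100 gene. Of 11 tested, 3 fell, 0 rose and 8 were not called, with a median log2 fold change of -0.093. Of all tested genes 4.92% were called lower and 7% higher. Calm4, a calmodulin-like protein of differentiating keratinocytes, was at 70.4 and 48.6 CPM in control and fell to 6.01 and 2.47 CPM (-3.82 on the log2 scale, standard error 0.385, adjusted p = 0.000197 by edgeR). Calml3, a calmodulin-like protein of epithelia, fell from 95.7 and 69.7 CPM to 25.7 and 9.10 CPM (-2.25, adjusted p = 0.00421). In both genes the groups were far apart. Rcn1, a calcium-binding protein of the endoplasmic reticulum, fell to 66.0 ± 8.70 from 113 ± 10.3 CPM in control (-0.77, adjusted p = 0.0186). It was not called once 2KO-labelled replicate 1 was left out (0.118) or on FPKM values (0.0682 on filtered values with a pseudocount of 1). Calm2, which encodes the ubiquitous sensor calmodulin, had a log2 fold change of -0.093 and was not called.

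The 9 S100a genes frame the epidermal differentiation region: 7 lie in a block at its start, and S100a11 and S100a10 at its far end, with 2820 kb between S100a9 and S100a11. Of 50 other listed genes of the region found in the files, 9 passed the filter and 18 had no count in any library. Of those 9 tested, 1 rose, 1 fell and 7 were not called, beside 7% higher and 4.92% lower among all tested genes. A negative log2 fold change was found in 8, and the median was -1.32, beside 0.0065 over all tested genes. Rptn, Crnn and Crct1 had 9 to 34 counts a library in control and 0 to 6 in the 2KO-labelled libraries. They passed the filter through control alone, so their negative sign (-5.68, -4.86 and -2.44) was set by it, and the count of 8 and the median lean on them. Lor, which encodes loricrin, was at 4.26 and 2.35 CPM in the control pair, against 11.45 and 16.9 CPM in the 2KO-labelled pair (log2 fold change 2.09, adjusted p = 0.0129). It was not called once 2KO-labelled replicate 2 was left out (adjusted p = 0.0696) or with the GC content and length offset (1.26, adjusted p = 0.0746). Rptn, which encodes the filaggrin-like protein repetin with an S100-type domain, had 64 counts in control and 1 in the 2KO-labelled libraries, a control to 2KO ratio of 64.7 (95% counting interval 11.2 to 2590; adjusted p = 0.0351), and lost its call without any 1 of the 4 libraries (adjusted p from 0.0704 to 0.208). Sprr1a, a small proline-rich envelope precursor, was at 409 and 191 CPM and at 171 and 69.0 CPM and missed the threshold (log2 fold change -1.33, adjusted p = 0.0515), though it was called lower in 8 of 16 alternatives. Tchh, or trichohyalin, which carries an S100-type domain too, was at 9.12 and 17.0 CPM and at 14.2 and 11.5 CPM. Of the 20 tested genes from Ilf2, before the first block, to 100 kb past S100a10, 3 were called lower and 1 higher. These 20 include the members: the genes called lower were S100a14 and S100a16, given above, and Rptn. Outside the members only Rptn was called lower and only Lor higher. The shares of all tested genes were 4.92% and 7%.

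**Figure D4:**
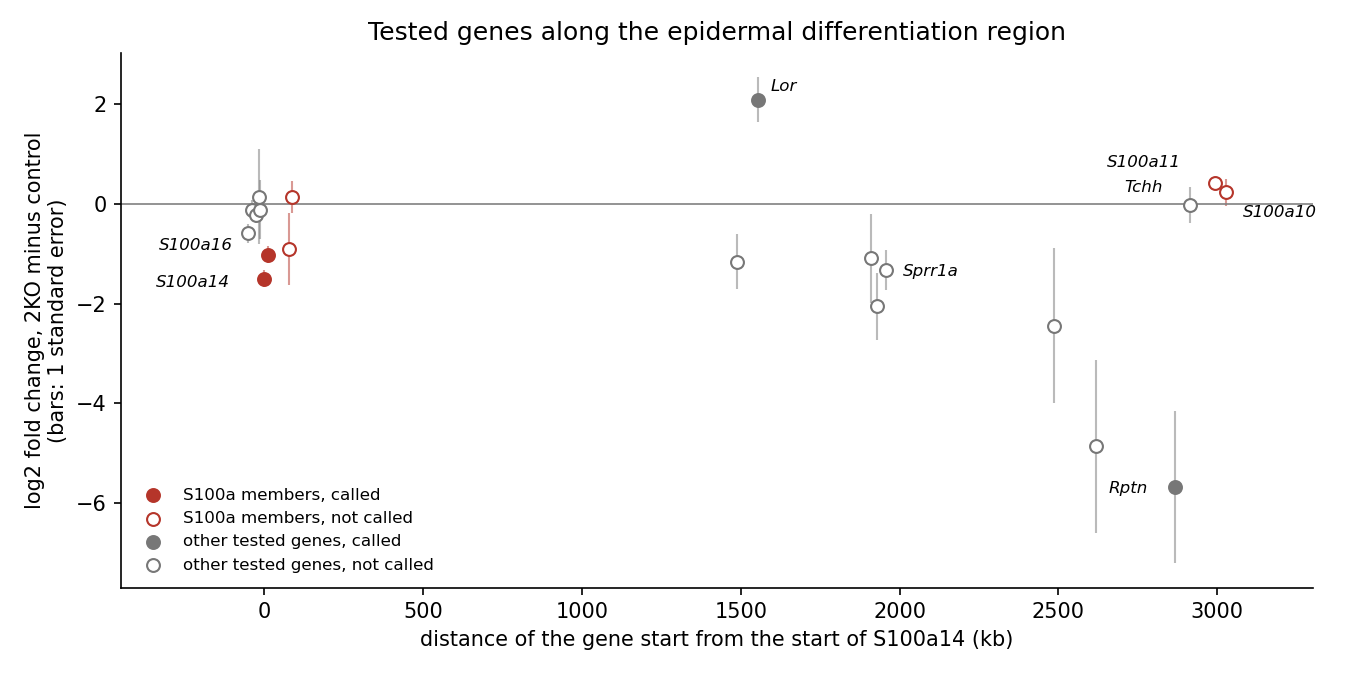
Change along the epidermal differentiation region. Each point is a tested gene at the distance of its start from the start of S100a14 (kb), with its log2 fold change, 2KO-labelled against control, and a bar of 1 standard error; red points are S100a members and filled points were called. S100a14, S100a16 and Rptn are the genes called lower and Lor the gene called higher, while S100a11 and S100a10 lie just above 0 at the far end.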

How the data were processed

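The authors deposited whole-number read counts per gene and library, and FPKM values per gene, which per the file name were scaled with cuffnorm. HTSeq 0.6.1, TopHat2 2.0.13, DESeq2 1.6.3 and Cufflinks 2.2.1 are named, with build mm10, per the submitters' processing notes. The tool behind each column, the annotation and any use of strand in counting were not given in the sources used here. RNA was amplified before sequencing, so reads are not independent molecules and counting errors cover counting only.

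Counts were compared in R 4.3.3 with edgeR 4.0.16 (TMM, filterByExpr, quasi-likelihood test of genotype, two-sided), with Benjamini-Hochberg adjustment over 15336 genes and a threshold of 0.05. The standard error is the log2 fold change over the root of the F statistic. CPM use TMM-scaled library sizes. The steps were tested on simulated data. Alternatives were RLE and upper-quartile scaling, DESeq2 1.42.0, limma-voom (limma 3.58.1), other filters, a replicate block, limma-trend on log2 of the deposited FPKM plus 1 or 0.1, and each library left out. Fits without Rn45s, and with an offset for GC content and length of transcripts (mgcv 1.9.3), were added after seeing the data. Positions and exon overlaps are from GENCODE on mm10. The members, gene lists and naming rule were chosen with earlier results of these data known. The rule names all members, other tested S100 genes, Ring1 and Rnf2, up to 6 called and the 2 most abundant genes of each related list, the 2 most abundant of each marker list, and the 3 genes nearest in pattern to the member of smallest p and to that of largest change, both S100a14; the text gives examples of the markers, and 1 gene that the rule names is not reported here.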

Additional observations from a re-analysis of the deposited data

How the results depend on the processing

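S100a14 and S100a16 were lower in all 16 alternatives and called in 15. On unfiltered log2(FPKM + 1) the members called lower went from 2 to 0, and 0 genes of any kind were called in either direction (3764 of 18210 genes at an unadjusted p under 0.05). The members called higher went from 0 to 1 with DESeq2, limma-voom and the GC content and length offset (S100a11 each time) and ranged from 0 to 1 with a library left out (S100a10 without control replicate 1, S100a11 without control replicate 2); the members called lower stayed at 2. Over all genes 627 were higher and 260 lower on filtered log2(FPKM + 1), 472 and 186 on log2(FPKM + 0.1), and 1242 lower with no low-count filter. Of the calls on these 2 filtered FPKM settings 70.7% and 71.7% were higher. With a library left out 839 to 1643 were higher (the most without control replicate 1) and 537 to 1104 lower. With the replicate block 1156 were higher and 880 lower, 0 and 2 of them members, and among genes named here Rptn lost its call (adjusted p = 0.0579) and Sprr1a gained one (0.000216). The labels give replicate numbers and do not say whether same-numbered libraries were handled together. Deviations of same-numbered libraries correlated at -0.0022 across all tested genes, a value that does not describe single genes. A shared pattern in some of the genes was not tested.

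Among the genes named here, those that changed sign were not called with all 4 libraries in the fit. Of them S100a10 alone was called with a library left out, as given above. With a library left out, log2 fold changes ranged from -0.53 to 0.59 for S100a6, -0.13 to 0.70 for S100a10, -0.37 to 0.52 for S100a1, -0.40 to 0.28 for S100a13, -2.16 to 1.23 for S100b, -0.25 to 0.083 for Anxa2, -0.28 to 0.15 for Calm2, -0.38 to 0.50 for Tchh and -4.15e-05 to 0.63 for Dcn. On FPKM values with pseudocounts of 1 (filtered or not) and 0.1 they were -0.015 and -0.058 for S100a1, 0.055 and 0.055 for Anxa2, 0.127 and 0.128 for Calm2, and 0.21 and 0.28 for Tchh. Calm2 was at 0.20 with the GC content and length offset. Tchh was at 0.029 with upper-quartile scaling, 0.063 with limma-voom and 0.034 with the replicate block. The causes were not tested. S100a3, S100a8 and S100a9, with 53 counts in all, were below the low-count filter and were not called without it.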
